A study of Mus musculus with 9 samples.

Results

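The genes described here encode enzymes that make nucleotides, serine and folate-bound one-carbon units. A list of 39 such genes was taken, and a gene counted as measured when at least 1 probe set of the array was annotated with its symbol and no other. By that rule 37 of 39 were measured, among 18193 genes and 45101 probe sets in all. They fall into purine synthesis (11 of 12), pyrimidine synthesis (4 of 4), the supply of deoxynucleotides (7 of 7), salvage and breakdown (7 of 8) and serine and one-carbon metabolism (8 of 8). Impdh2 and Tymp were not analysed here, because no probe set named either of them alone. A gene read by more than 1 probe set is represented by its brightest, judged by the mean log2 level over all arrays.

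Expression was measured on 9 Affymetrix arrays, with 3 arrays for each of 3 populations sorted from normal bone marrow of C57BL/6 mice of either sex, aged 4 to 10 weeks. The first, called Mac1lo here, carried the stem cell factor receptor c-kit and the granulocyte antigen Gr1 with low or absent Mac1, the integrin chain encoded by Itgam. The second, Mac1+, carried c-kit, Gr1 and Mac1. The third, the neutrophils, lacked c-kit and carried both Gr1 and Mac1. The labels describe both c-kit+ populations as undifferentiated cells or myeloblasts, sorted without the lineage antigens B220, TER119, CD3, CD4, CD8 and IL7Rα, and RNA was amplified in 2 cycles before labelling. All values are intensities on the linear scale as deposited, and differences are on the scale log2(intensity + 16), which understates changes of dim genes.

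Purine rings are built stepwise on phosphoribosyl pyrophosphate, and pyrimidine rings are built first and then joined to it. Ribonucleotide reductase turns ribonucleotides into the deoxynucleotides that DNA synthesis consumes, and thymidylate synthase makes the thymidine form with a one-carbon unit from folate. Serine, made from a glycolytic intermediate, is a main donor of those one-carbon units, which also enter the purine ring. Cells that do not divide can cover much of their nucleotide demand by salvage, in which free bases and nucleosides are phosphorylated again. Granulopoiesis passes from dividing precursors to neutrophils that no longer divide.

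Markers were read to check the labelled populations. The arrays had mean intensities between 549.4 and 727.4 and medians between 39.1 and 61.8. Summed intensities of 14 measured proliferation genes lay between 84067 and 89443 on the Mac1lo arrays, between 101815 and 114038 on the Mac1+ arrays and between 6185 and 7750 on the neutrophil arrays. Those of 9 measured neutrophil markers were 15967 to 19766 in Mac1lo, 72811 to 82561 in Mac1+ and 102997 to 119223 in neutrophils. Mac1lo also carried monocyte markers, with a sum over 10 genes of 56100 to 60367, against 5471 to 6593 in Mac1+ and 15283 to 23047 in neutrophils. The sum of 9 stem and progenitor genes was 78491 to 86103 in Mac1lo, 72283 to 85344 in Mac1+ and 2830 to 16309 in neutrophils. Among them, Cd34 and Flt3 were below 100 on every Mac1+ and neutrophil array, while Kit read 2998 to 3228 in Mac1lo and 3176 to 3470 in Mac1+. The sum of 8 B-cell genes was 9130 to 13445 in Mac1lo, 3502 to 13185 in Mac1+ and 1097 to 2860 in neutrophils, most of it from Ebf1, which read 7051 to 11397 in Mac1lo, 1898 to 11772 in Mac1+ and 836 to 2112 in neutrophils. Of the other B-cell genes, Cd79b read 934 to 1176 and Igll1 694 to 775 in Mac1lo, and Pax5 and Vpreb3 were below 100 on every array; their part in the results was not tested. Neutrophil array 1 stood apart from the other two: myeloperoxidase (Mpo), a protein of early granule precursors, read 7132 there against 1712 and 778, and Elane, a protease of the same granules, read 2199 against 451 and 208. Of the 37 members, 8 were at least 2-fold brighter and 2 at least 2-fold dimmer on that array than on the mean of the other neutrophil arrays. The same held for 2634 and 1746 of all 18193 genes. Some of the results that this array moved, but not all, are also given without it.

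Nearly the whole group was bright in both c-kit+ populations and dim in neutrophils. All 3 arrays exceeded an intensity of 1000 for 35 members in Mac1lo, for 32 in Mac1+ and for 4 in neutrophils. The median member read 4140, 4706 and 4314 on the Mac1lo arrays, 3021, 2987 and 2964 on the Mac1+ arrays, and 285, 270.4 and 216 on the neutrophil arrays. The median over all genes was 116 on each Mac1lo array, between 97.5 and 103 in Mac1+ and between 70.5 and 94.1 in neutrophils. In neutrophils 6 members stayed below 100 on all 3 arrays, and in the c-kit+ populations 0 did. In sorted bulk samples, fewer cells of a type and less RNA per cell cannot be told apart.

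**Figure D1:**
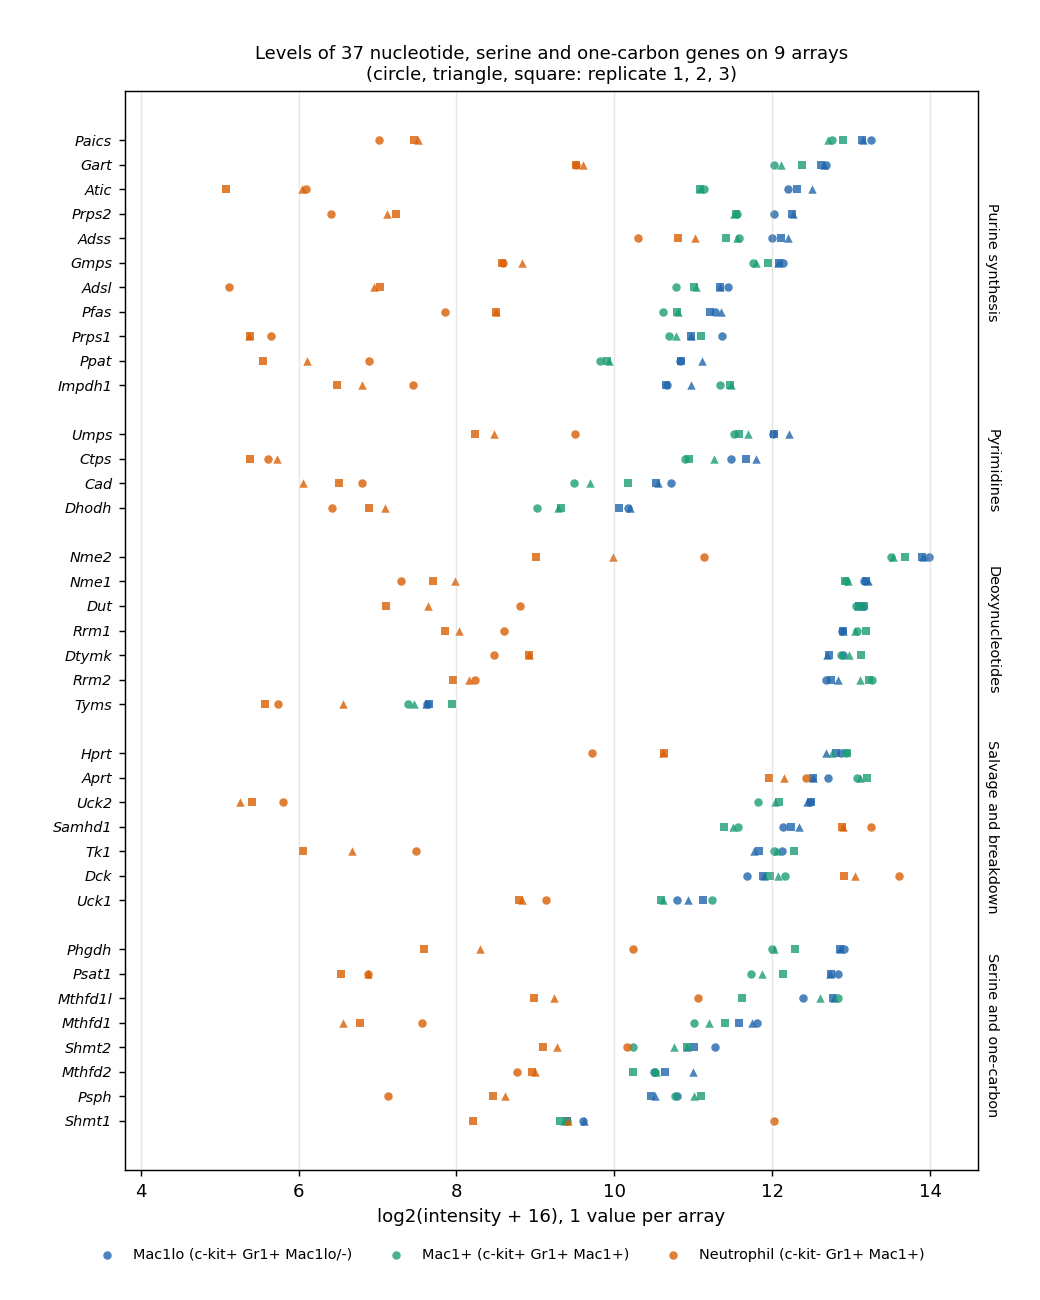
Level of each of the 37 measured genes on each of the 9 arrays, as log2(intensity + 16), grouped by pathway; colour marks the population and the symbol marks the replicate number. Most genes lie between about 10 and 14 in both c-kit+ populations and far lower in neutrophils, while Dck and Samhd1 are highest in neutrophils and the 3 neutrophil values of Shmt1 lie far apart.

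Neutrophils differed from Mac1+ myeloblasts in almost every member. By limma, at an adjusted p under 0.05 over all genes, 34 of 37 fell and 2 rose, and 1 was not called. Over all genes 48.1% were called in this comparison, 28.4% lower and 19.7% higher, and the median difference was 0.05 against -3.39 for the members. Between neutrophils and Mac1lo, 33 members fell, 2 rose and 2 were not called, with a median of -3.89, where 52.6% of all genes were called, 30.0% lower and 22.6% higher, and their median was 0.05. The arrays of the groups did not overlap for 36 of 37 members in either comparison, against 54.6% of all genes for Mac1+ and 59.1% for Mac1lo. The 2 comparisons share the neutrophil arrays. All genes include many dim ones, whose falls can be measured less far. When the dimmest 40% of genes were left out, 46.4% were called lower and 24.9% higher against Mac1+. Against Mac1lo these shares were 46.9% and 28.8%, and the median over the genes kept was -0.41 in both comparisons. With any 1 of the 9 arrays left out, no member lost its call in either comparison.

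Mac1+ and Mac1lo differed far less. The members' median difference was -0.36 against -0.01 for all genes, and 28 of 37 lay below 0. By limma 5 fell in Mac1+ (Atic, Ctps, Dhodh, Psat1 and Samhd1) and 0 rose, where 11.8% of all genes were called, 5.51% lower and 6.31% higher. The arrays of the groups did not overlap for 27 members, against 39.9% of all genes. At an unadjusted p under 0.05 there were 16 of 37 members and 3961 of 18193 genes. The count called lower depends on single arrays: it was 17, with 3 called higher, without neutrophil array 1, and it was 3, 1 and 2 without Mac1lo arrays 1, 2 and 3, and 3, 2 and 3 without Mac1+ arrays 1, 2 and 3. The calls over all genes moved with it: 23.0% were called, 10.9% lower, without neutrophil array 1, and between 3.29% and 3.97% lower without a Mac1lo or Mac1+ array. Psat1 kept its call in 9 of 9 such fits, Dhodh in 6, Atic and Samhd1 in 5 each and Ctps in 2. Of the 10 monocyte markers given above 9 fell between the same groups, and their part in these differences was not tested.

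**Figure D2:**
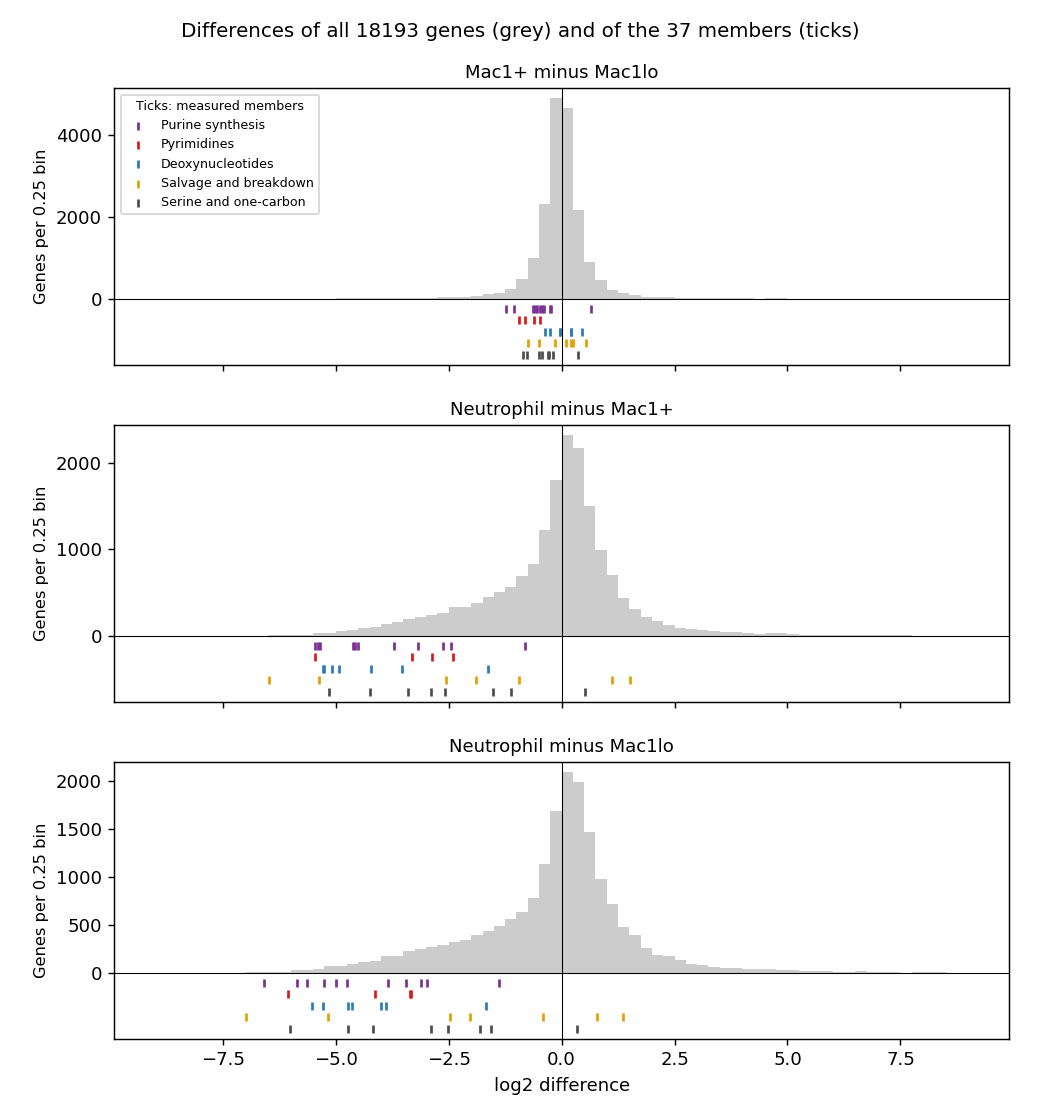
Histograms of the log2 differences of all 18193 genes in the 3 comparisons (grey, bins of 0.25), with 1 tick per member below, in a row for each pathway. The ticks lie near the centre of the histogram for Mac1+ minus Mac1lo and mostly in its lower tail for both neutrophil comparisons, with medians of -0.36, -3.39 and -3.89.

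Some members have a shared sequence feature at their start sites. CACGTG, the E-box bound by Myc and related factors, was searched on both strands in the 250 bases before each start of the RefSeq promoter table for mouse (GRCm38.p6), which held 35 of the 37 members with 41 windows. It occurred before 5 of 35 members (14.29%) and before 6.86% of all 27025 genes, and by window in 6 of 41 against 6.02% of 32851. From Mac1lo to neutrophils, log2 differences of the members with a match lay between -6.60 (Atic) and -1.67 (Tyms). Uck2 (-6.98) and Ctps (-6.07) have no match, and a relation between the motif and the falls was not tested. Below, 30 bases around each match are shown in the direction of the gene, 5′ to 3′, with the motif in capitals.

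Atic, chr1:71557126-71557155, plus strand: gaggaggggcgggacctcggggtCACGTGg

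Paics, chr5:76951087-76951116, plus strand: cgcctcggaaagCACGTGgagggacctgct

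Nme1, first start, chr11:93968037-93968066, minus strand: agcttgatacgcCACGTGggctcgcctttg

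Nme1, second start, chr11:93968273-93968302, minus strand: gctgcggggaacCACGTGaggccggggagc

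Dtymk, chr1:93802065-93802094, minus strand: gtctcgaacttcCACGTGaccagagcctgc

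Tyms, chr5:30073669-30073698, minus strand: aaccacttctgtCACGTGggggcggggtct

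The match lies 7 bases before the start of Atic, 203 before that of Paics, 29 and 18 before the starts of Nme1, 148 before that of Dtymk and 61 before that of Tyms. CCAAT was found before 37.14% of members and 37.49% of all genes. TTTCCCGC, an E2F-type sequence, was found before 1 member, Ppat, and before 1.03% of genes, and TTTGGCGC before 0 members and 0.48% of genes. TGATGNAA, the core of the site bound by Atf4 with C/EBP factors, was found before 1 member, Prps1, and before 3.91% of genes. The starts of Paics (76951302, plus strand) and Ppat (76951578, minus strand) lie 276 bases apart on chromosome 5. Each gene is read toward the start of the other, so the window before each start lies downstream of the other start. Both E2F-type matches of Ppat are shown here, with the motif as it reads on the gene's own strand in capitals.

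Ppat, chr5:76951771-76951800, minus strand: gagcagaccgcGCGGGAAAaaagggcagtg

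Ppat, chr5:76951718-76951747, minus strand: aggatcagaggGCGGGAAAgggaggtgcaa

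The 2 matches lie 211 and 158 bases before the Ppat start. A match describes these letters in this window and no binding was measured.

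In purine synthesis, all 11 measured genes fell in neutrophils against Mac1+ (median -4.51) and against Mac1lo (median -4.74). Over all genes 28.4% and 30.0% were called lower in these comparisons. Between Mac1lo and Mac1+ 1 fell and 0 rose (median -0.48), beside 5.51% and 6.31% of all genes. The pathway opens with the phosphoribosyl pyrophosphate synthetases, which make the sugar donor. Prps1 read 2611, 1997 and 1994 on the Mac1lo arrays, 1635, 1749 and 2176 on the Mac1+ arrays, and 34.2, 25.5 and 26.0 on the neutrophil arrays. Every neutrophil value lay far below every c-kit+ value, and the c-kit+ groups overlapped. Prps1 fell 41.8-fold from Mac1+ to neutrophils (log2 difference -5.39 ± 0.18 SE, adjusted p = 5.82e-08, limma). Its paralog Prps2 read 4140, 4899 and 4870 in Mac1lo, 3002, 2922 and 2964 in Mac1+, and 68.95, 122.9 and 134 in neutrophils. The 3 groups of Prps2 values did not overlap, and the fall to neutrophils was 24.6-fold (-4.62 ± 0.22, adjusted p = 2.85e-07), while the difference of -0.64 ± 0.22 between Mac1+ and Mac1lo was not called (adjusted p = 0.105).

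The committing step is carried out by Ppat, the amidotransferase that adds the first ring nitrogen, which fell by 3.70 ± 0.30 on the log2 scale from Mac1+ to neutrophils. It was 2.06-fold dimmer in Mac1+ than in Mac1lo, at 890.5 to 957.8 against 1804 to 2195, a difference that missed the threshold by a little (-1.04 ± 0.30, adjusted p = 0.0547). Gart, a protein with 3 of the next activities, fell 6.18-fold, and Pfas, the amidotransferase of the fourth step, fell 5.46-fold from Mac1+ to neutrophils. Neutrophil intensities lay between 713 and 765 for Gart and between 216 and 348 for Pfas. By limma on every probe set, another probe set of Gart also fell from Mac1+ to neutrophils (-3.13, adjusted p = 9.73e-07). Its remaining ones were not called there (-0.67 and -0.33, adjusted p = 0.188 and 0.441). The one at -0.67 read 805 to 1800 in Mac1+ and 522 to 1222 in neutrophils. Adsl, adenylosuccinate lyase, which acts both in the ring pathway and on the branch to AMP, read 109 and 114 on neutrophil arrays 2 and 3 but 18.7 on array 1. Its fall from Mac1lo was 32.0-fold with all arrays and 20.8-fold without neutrophil array 1.

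Paics carries out 2 middle steps of the ring. It read 9761, 9056 and 8986 in Mac1lo, 6872, 6668 and 7607 in Mac1+, and 114, 166 and 160.1 in neutrophils. These groups did not overlap, and the means were 13.18 ± 0.07, 12.78 ± 0.10 and 7.33 ± 0.27 on the log2 scale (SD, n = 3 arrays each). Paics was lower in neutrophils by 57.6-fold against Mac1lo (-5.85 ± 0.16, adjusted p = 2.16e-08), with a difference of -0.40 ± 0.16 between Mac1+ and Mac1lo (adjusted p = 0.194).

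Atic closes the ring by the last 2 reactions, the first of which uses a folate-bound formyl group. It read 4706, 5776 and 5093 in Mac1lo, 2242, 2157 and 2146 in Mac1+, and 52.4, 50.2 and 18.0 in neutrophils. The groups stood in 3 separate steps, with the Mac1+ values close together. Atic fell 2.36-fold from Mac1lo to Mac1+ (-1.24 ± 0.26, adjusted p = 0.0136), the lowest difference of any member there, and a further 41.0-fold to neutrophils (-5.36 ± 0.26, adjusted p = 3.3e-07). Between Mac1lo and neutrophils the difference of Atic was -6.60 ± 0.26, with neutrophil values near or below the median probe set of their array. Without Mac1lo array 2 or 3, or Mac1+ array 2 or 3, the first of these steps was not called (adjusted p of 0.0652, 0.054, 0.0545 and 0.0534).

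The product IMP is turned into AMP or GMP along separate branches. Adss, adenylosuccinate synthetase on the AMP branch, kept neutrophil intensities of 1246, 2058 and 1779 against 2715 to 3047 in Mac1+ and 4070 to 4706 in Mac1lo. It fell 1.75-fold from Mac1+ (-0.81 ± 0.19, adjusted p = 0.00718), the difference nearest 0 in purine synthesis. Impdh1, IMP dehydrogenase on the GMP branch, read 1613, 1997 and 1599 in Mac1lo, 2575, 2835 and 2808 in Mac1+, and 159, 95.7 and 73.8 in neutrophils. It was the only purine gene whose Mac1+ values all lay above the Mac1lo values, by 1.58-fold, but that difference was not called (0.66 ± 0.24, adjusted p = 0.128); it was called without neutrophil array 1. From Mac1+ to neutrophils Impdh1 fell 22.8-fold (-4.51 ± 0.24, adjusted p = 5.3e-07), and Gmps, which aminates XMP to GMP, fell by 3.17 on the log2 scale.

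In pyrimidine synthesis all 4 genes fell in neutrophils, with medians of -3.09 against Mac1+ and -3.74 against Mac1lo. Over all genes 28.4% and 30.0% were called lower in these comparisons. Between Mac1+ and Mac1lo 2 of 4, Dhodh and Ctps, were called lower in Mac1+ (median -0.72), beside 5.51% of all genes. Both calls depend on single arrays, as given below. Cad, the protein with the first 3 activities, fell 9.98-fold from Mac1+ to neutrophils. Between the c-kit+ populations Cad read 1453 to 1668 in Mac1lo and 699.6 to 1133 in Mac1+, a difference of -0.82 ± 0.24 that was not called (adjusted p = 0.0581). Umps, which makes UMP, fell 7.27-fold to neutrophils, where array 1 read 706 and the others 340 and 284.

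Dhodh, the mitochondrial enzyme that oxidises dihydroorotate, read 1143, 1157 and 1053 in Mac1lo, 502, 609 and 624 in Mac1+, and 70.1, 120.5 and 102 in neutrophils. No value of one population reached those of another. Dhodh fell 1.91-fold from Mac1lo to Mac1+ (-0.94 ± 0.19, adjusted p = 0.0123) and 5.30-fold from there to neutrophils (-2.41 ± 0.19, adjusted p = 6.65e-06). The first step was not called without Mac1lo array 1 or 2 or Mac1+ array 1, with adjusted p of 0.0524, 0.0581 and 0.0571, nor with each array centred on its median (0.0604).

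Ctps, CTP synthase, read 2838, 3538 and 3223 in Mac1lo, 1891, 2435 and 1949 in Mac1+, and 33.1, 37.1 and 25.8 in neutrophils. All neutrophil values of Ctps lay below the median probe set of their array. Its paralog Ctps2, from the wider list described below, read 3287 to 3918 in neutrophils. By limma Ctps2 was called higher there than in Mac1lo (0.45 ± 0.14, adjusted p = 0.0246) and was not called against Mac1+ (0.18 ± 0.14, adjusted p = 0.319). The fall of Ctps between Mac1lo and neutrophils was 67.0-fold (-6.07 ± 0.17, adjusted p = 2.15e-08). Its fall of 1.53-fold from Mac1lo to Mac1+ (-0.61 ± 0.17) was just past the threshold at an adjusted p of 0.0481, and 7 of 9 fits without 1 array did not call it (any of the 3 Mac1lo or 3 Mac1+ arrays, or neutrophil array 2).

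The 7 deoxynucleotide genes differed little between the c-kit+ populations and fell deeply in neutrophils. Between Mac1lo and Mac1+ their log2 differences lay between -0.36 and 0.45 (median -0.03). By limma 0 of 7 were called there, beside 11.8% of all genes, and 1 had an unadjusted p under 0.05. The arrays of the c-kit+ groups did not overlap for 4 of 7, beside 39.9% of all genes. All 7 fell in neutrophils, with medians of -4.94 against Mac1+ and -4.63 against Mac1lo. Over all genes 28.4% and 30.0% were called lower in these comparisons. The large subunit of ribonucleotide reductase, Rrm1, read 7552, 7593 and 7621 in Mac1lo, 8633, 8482 and 9317 in Mac1+, and 374, 247 and 216 in neutrophils. The small subunit made for S phase, Rrm2, read 6538, 7257 and 6858 in Mac1lo, 9850, 8860 and 9582 in Mac1+, and 285, 270.4 and 232.0 in neutrophils. Both subunits had their highest values in Mac1+, without overlap with Mac1lo, and both dropped on every neutrophil array. Rrm2b, a paralog of Rrm2 from the wider list described below, read 530 to 1326 in neutrophils. By limma it was called higher there than in Mac1+ (1.34 ± 0.31, adjusted p = 0.00554).

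Rrm1 fell 30.6-fold (-4.94 ± 0.19, adjusted p = 1.31e-07) and Rrm2 34.0-fold (-5.09 ± 0.14, adjusted p = 4.01e-08) from Mac1+ to neutrophils. Their differences between Mac1+ and Mac1lo, 0.21 ± 0.19 for Rrm1 and 0.45 ± 0.14 for Rrm2, were not called (adjusted p = 0.668 and 0.07). Of the 3 probe sets of Rrm2, 1 was called higher in Mac1+ when every probe set was tested on its own, at 5987, 5827 and 6033 against 3650, 3197 and 3482 (0.79 ± 0.15, adjusted p = 0.0116). The summed proliferation genes were also higher in Mac1+ than in Mac1lo, as given above, and dropped in neutrophils, and their part in these results was not tested.

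Dut, which removes dUTP and so supplies dUMP, fell 38.1-fold, and Dtymk, thymidylate kinase, fell 18.6-fold from Mac1+ to neutrophils. Dut read 431 on neutrophil array 1 and 183 and 122 on the others. Tyms, thymidylate synthase, had 4 probe sets of its own, all dim. The brightest read 179 to 185 in Mac1lo, 151 to 230.4 in Mac1+ and 31.6 to 78.2 in neutrophils, and fell 3.11-fold from Mac1+. When every probe set was tested, a second one also fell (-1.70, adjusted p = 0.0141), and the other two, below 70 on every array, gave 0.69 and 0.49 and were not called (adjusted p = 0.0596 and 0.341). A further probe set that also names Tyms-ps was not used. The nucleoside diphosphate kinases interconvert di- and triphosphates. Nme1 read 9176, 9504 and 9312 in Mac1lo, 7799, 7945 and 7729 in Mac1+, and 142, 236 and 193 in neutrophils. Its paralog Nme2 read 16258, 15394 and 15195 in Mac1lo, 11591, 11839 and 13133 in Mac1+, and 2240, 994 and 499.8 in neutrophils. The neutrophil values of Nme1 were close together, and those of Nme2 were spread, with array 1 the brightest. From Mac1+ to neutrophils Nme1 fell 38.7-fold (-5.27 ± 0.18, adjusted p = 6.33e-08) and Nme2 11.5-fold (-3.53 ± 0.43, adjusted p = 0.00012).

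**Figure D3:**
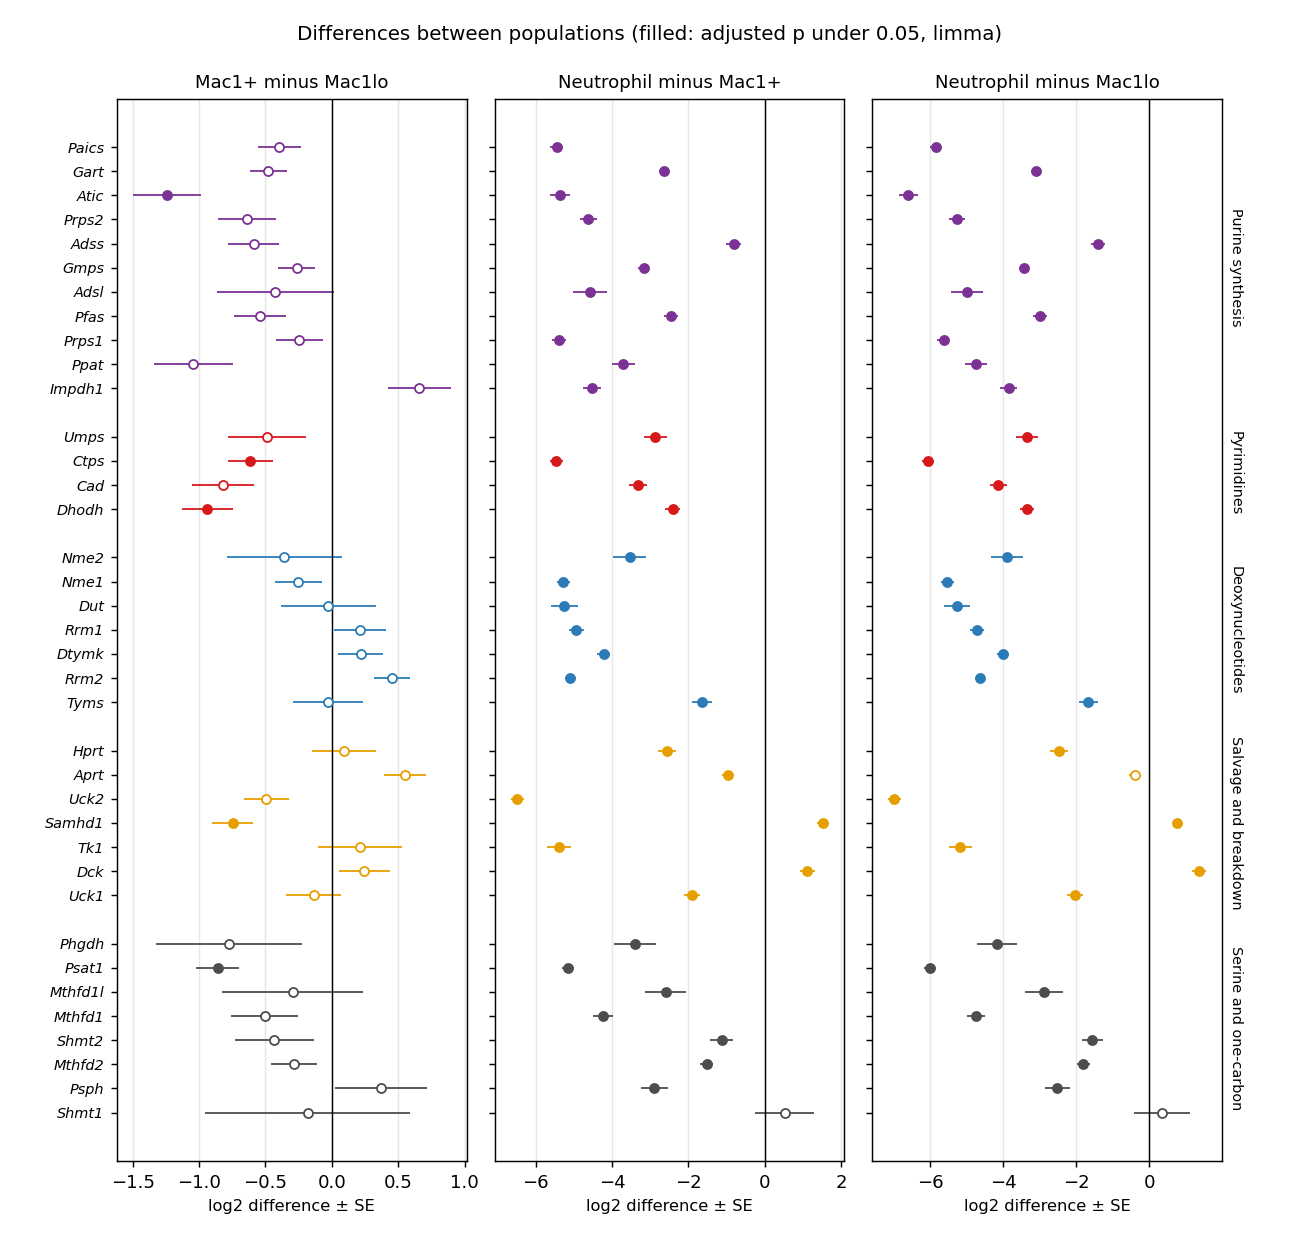
Log2 difference of each member in the 3 comparisons, with its standard error as a bar; filled points have an adjusted p under 0.05 by limma, and the first panel has a narrower axis. Filled points number 5 for Mac1+ minus Mac1lo, 36 for neutrophil minus Mac1+ and 35 for neutrophil minus Mac1lo, and Dck and Samhd1 alone lie to the right of 0 and filled in both neutrophil panels.

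Salvage and breakdown genes moved in both directions. In neutrophils 5 of 7 fell and 2 rose against Mac1+, beside 28.4% of all genes called lower and 19.7% higher. Against Mac1lo 4 fell, 2 rose and 1 was not called, beside 30.0% lower and 22.6% higher. Between Mac1lo and Mac1+ 1 of 7 fell, beside 5.51% of all genes, with a median of 0.09. Uck2, uridine-cytidine kinase, had the deepest fall of the 37 on its chosen probe set. It read 5702, 5558 and 5727 in Mac1lo, 3584, 4186 and 4322 in Mac1+, and 39.9, 22.2 and 26.5 in neutrophils. Its neutrophil values were again under the median probe set of their array, and below every c-kit+ value by a wide margin. The fall from Mac1lo was 126-fold (-6.98 ± 0.17, adjusted p = 1.91e-08), a size set in part by that floor. Of its other 5 probe sets 4 also fell, by between -6.52 and -3.94; the one at -3.94 read 2300 to 2566 in Mac1lo and 103 to 179 in neutrophils. The last, below 70 on every array, was not called (0.09, adjusted p = 0.902 over all probe sets).

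The other uridine-cytidine kinase is Uck1. Its values were 1762, 1939 and 2217 in Mac1lo, 2401, 1554 and 1525 in Mac1+, and 544, 437 and 427 in neutrophils. The c-kit+ groups of Uck1 overlapped and the neutrophil arrays lay below both, a fall of 4.10-fold from Mac1lo (-2.04 ± 0.21, adjusted p = 2.97e-05). Uckl1, a related gene from the wider list described below, went the other way and read 2678 to 3316 in neutrophils. By limma Uckl1 was called higher there than in Mac1lo (1.48 ± 0.22, adjusted p = 0.000328) and than in Mac1+ (0.72 ± 0.22, adjusted p = 0.022). Tk1, the thymidine kinase of S phase, fell 41.7-fold from Mac1+ to neutrophils, where it read 164, 86.1 and 50.5 against 4145 to 4938. Tk2, another thymidine kinase, from the wider list, read 2065 to 2820 in neutrophils and 740 to 924 in Mac1+. By limma Tk2 was called higher in neutrophils than in Mac1+ (1.55 ± 0.18, adjusted p = 7.84e-05).

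The purine bases are salvaged by Hprt and Aprt. Hprt, which recovers hypoxanthine and guanine, read 6540 to 7476 in Mac1lo, 6915 to 7850 in Mac1+, and 824, 1557 and 1562 in neutrophils, a fall of 5.89-fold from Mac1+. Aprt, which recovers adenine, read 6654, 5817 and 5841 in Mac1lo, 8574, 8793 and 9427 in Mac1+, and 5473, 4508 and 3958 in neutrophils. Its highest values were in Mac1+, and those of neutrophils lay just below the Mac1lo values. Aprt fell 1.93-fold from Mac1+ to neutrophils (-0.95 ± 0.16, adjusted p = 0.000825). Its differences of 0.55 ± 0.16 between Mac1+ and Mac1lo (adjusted p = 0.057) and of -0.40 ± 0.16 between neutrophils and Mac1lo (adjusted p = 0.0584) were both just outside the threshold, and both were called without neutrophil array 1.

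Dck, deoxycytidine kinase, which phosphorylates deoxynucleosides, went the other way. It read 3268, 3776 and 3769 in Mac1lo, 4551, 4277 and 3992 in Mac1+, and 12396, 8438 and 7667 in neutrophils. Every neutrophil value was above every c-kit+ value. Dck rose 2.17-fold from Mac1+ to neutrophils (1.12 ± 0.19, adjusted p = 0.00111) and was 2.58-fold higher than in Mac1lo (1.37 ± 0.19, adjusted p = 0.000266).

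Samhd1, which breaks deoxynucleotide triphosphates down, read 4480, 5153 and 4792 in Mac1lo, 3021, 2885 and 2668 in Mac1+, and 9731, 7585 and 7539 in neutrophils. It was lowest in Mac1+ and highest in neutrophils, with no overlap. Samhd1 fell 1.68-fold from Mac1lo to Mac1+ (-0.75 ± 0.15, adjusted p = 0.0125) and then rose 2.87-fold to neutrophils (1.52 ± 0.15, adjusted p = 3.15e-05), to 1.71-fold above Mac1lo (0.77 ± 0.15, adjusted p = 0.0021). Its fall in Mac1+ was not called without Mac1lo array 2 or 3 or Mac1+ array 2 or 3 (adjusted p of 0.0665, 0.0576, 0.0508 and 0.0558), nor with the mean of its 5 probe sets (0.28).

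In serine and one-carbon metabolism 7 of 8 genes fell in neutrophils and 1 was not called, with medians of -2.74 against Mac1+ and -2.70 against Mac1lo. Over all genes 28.4% and 30.0% were called lower in these comparisons. Between Mac1lo and Mac1+ 1 of 8 fell (median -0.36), beside 5.51% of all genes. Phgdh, the first enzyme of serine synthesis, read 7399 to 7691 in Mac1lo, 4064 to 4972 in Mac1+, and 1188, 299 and 177 in neutrophils. Array 1 of the neutrophils was the outlying value, and the fall from Mac1lo was 18.0-fold with it (-4.17 ± 0.55, adjusted p = 0.00016) and 30.5-fold without it (-4.93 ± 0.20). The difference of -0.78 ± 0.55 between Mac1+ and Mac1lo had an adjusted p of 0.532, and of 0.0169 without that neutrophil array, since all groups share 1 estimate of error.

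Psat1, the aminotransferase of the next step, read 7260, 6790 and 6843 in Mac1lo, 3384, 3724 and 4468 in Mac1+, and 102, 101 and 76.8 in neutrophils. The 3 populations stood clearly apart. Psat1 fell 1.81-fold from Mac1lo to Mac1+ (-0.86 ± 0.16, adjusted p = 0.00854) and 35.4-fold from there to neutrophils (-5.15 ± 0.16, adjusted p = 4.67e-08). Its other probe set gave -0.77 ± 0.23 for the first step, which was not called (adjusted p = 0.0852 over all probe sets). Psph, the phosphatase that releases serine, fell 7.41-fold from Mac1+ to neutrophils, with array 1 the dimmest at 125 against 375 and 337.

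The serine hydroxymethyltransferases split serine into glycine and a one-carbon unit, Shmt1 in the cytosol and Shmt2 in mitochondria. The probe set that stood for Shmt1 read 759, 770 and 662 in Mac1lo, 661, 642 and 618 in Mac1+, and 4160, 668 and 279 in neutrophils. Neutrophil array 1 was above and array 3 below every other value, so the groups overlapped and no difference was called (0.52 ± 0.77 against Mac1+, adjusted p = 0.606, and 0.34 ± 0.77 against Mac1lo, adjusted p = 0.736). Without that array the signs turned, to -0.55 and -0.73, and neither was called (adjusted p = 0.165 and 0.0694). The other 3 probe sets of Shmt1 all fell against Mac1lo, by -5.41, -3.72 and -3.28, and the first of them read 2241, 2194 and 2017 in Mac1lo, 1524, 1751 and 1848 in Mac1+ and 43.1, 29.6 and 33.2 in neutrophils.

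Shmt2 was also read differently by its probe sets. The chosen one read 2452, 1919 and 2047 in Mac1lo, 1189, 1709 and 1916 in Mac1+, and 1124, 605 and 532 in neutrophils. On it the c-kit+ groups came close without overlapping and neutrophils lay below both, a fall of 2.94-fold from Mac1lo (-1.56 ± 0.29, adjusted p = 0.00164) and of 2.18-fold from Mac1+ (-1.12 ± 0.29, adjusted p = 0.0114). After quantile normalization the latter was not called (adjusted p = 0.0817). The other 3 fell by -6.26, -5.22 and -6.24 from Mac1lo to neutrophils, and each was also called lower in Mac1+ than in Mac1lo (-0.81, -0.75 and -0.79, with adjusted p of 0.0344, 0.0346 and 0.0283 over all probe sets).

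The remaining genes interconvert folate-bound one-carbon units. Mthfd1, the cytosolic enzyme with 3 activities, fell 18.8-fold from Mac1+ to neutrophils. Mthfd2, a mitochondrial dehydrogenase and cyclohydrolase, kept 419 to 494 in neutrophils and fell 2.87-fold, from 1194 to 1458 in Mac1+. Mthfd1l, which releases formate from mitochondria, was spread on the Mac1+ arrays (7305, 6204 and 3115) and on the neutrophil arrays (2125, 585 and 490.1). Its fall from Mac1lo was 7.39-fold (-2.88 ± 0.53, adjusted p = 0.00138), and 11.6-fold without neutrophil array 1.

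The difference between Mac1+ and Mac1lo was taken as a share of that between neutrophils and Mac1lo, on the log2 scale. This share covers the members called lower in neutrophils than in Mac1lo. The median share was 17.1% for the 4 pyrimidine genes, 14.3% for 7 one-carbon genes, 12.1% for 11 purine genes, 1.46% for 4 salvage genes and 0.495% for 7 deoxynucleotide genes. The ranges of the first 3 overlapped widely, at 10.1% to 28.0%, -14.7% to 27.8% and -17.1% to 42.2%. Those of salvage and deoxynucleotide genes were -4.06% to 7.07% and -9.78% to 9.23%. The highest one-carbon share is that of the chosen Shmt2 probe set. Adss had the highest share at 42.2%, and Impdh1, brighter in Mac1+ than in Mac1lo, the lowest at -17.1%. These shares are descriptions without a test between groups.

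Of the 37 genes, 25 had more than 1 probe set, with 91 in all. When each of 34945 probe sets naming 1 gene was tested on its own, 74 of 91 fell and 8 rose between Mac1lo and neutrophils and 9 were not called, where 26.5% of all probe sets were called lower. The 8 that rose were all 3 of Dck, between 0.75 and 2.43, and all 5 of Samhd1, between 0.77 and 4.34. No gene had probe sets called in both directions in any comparison. Between Mac1lo and Mac1+ 10 probe sets fell and 1 rose, where 4.11% of all were called lower.

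**Figure D4:**
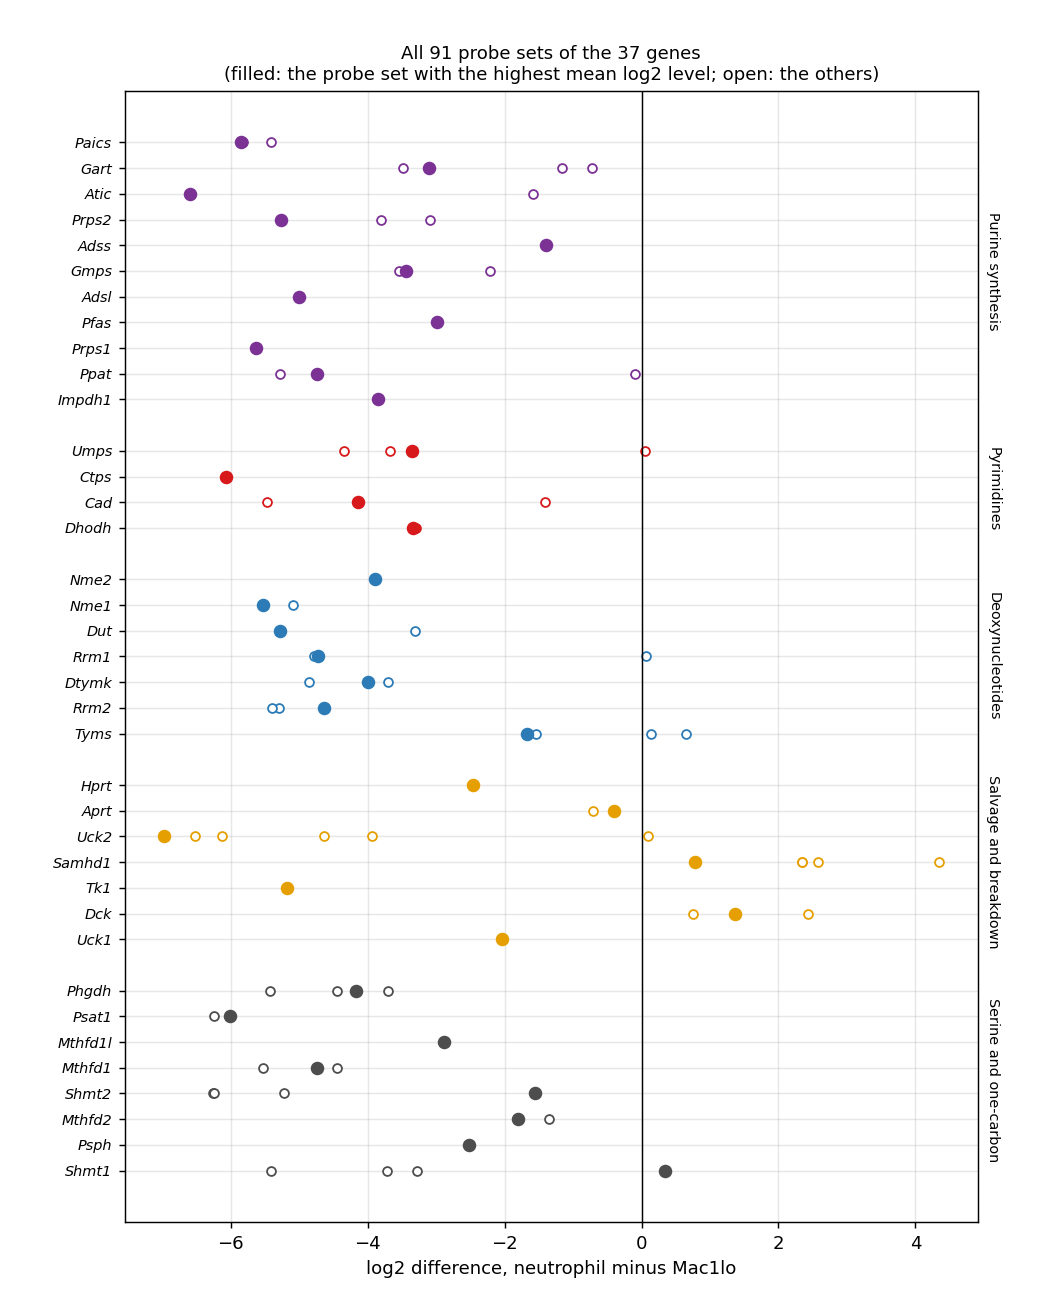
Log2 difference between neutrophils and Mac1lo for all 91 probe sets of the 37 genes; the filled point of each gene is the probe set that stands for it and open points are the others. Dck and Samhd1 have every point above 0, while the chosen point of Shmt1 at 0.34 lies apart from its other 3, between -5.41 and -3.28.

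The size of the deepest falls depends on the constant added before the log, because their neutrophil values are near or below the median of the array. For Uck2 the fold from Mac1lo to neutrophils was 126 with 16 added, 190.7 with 1 and 61.4 with 64, and for Prps1 it was 49.5, 74.5 and 24.3. With 64 added, the folds of Atic and Ctps were 50.9 and 33.9 in place of 96.9 and 67.0.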

How the data were processed

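The authors deposited linear intensity values of 9 arrays in 1 table; the summary and scaling software is not given in these sources. Names came from the platform annotation, in which 34945 probe sets name 1 gene, 932 several and 9160 none, and 64 are controls. All 37 members matched GRCm38.p6 by gene ID. Differences were fitted with limma 3.58.1 in R 4.3.3 on log2(intensity + 16), in 1 model of 3 groups, with Benjamini-Hochberg adjustment over 18193 genes. The members and lists were chosen with earlier results of these data known. Values on every array are given, within each pathway, for the called members with the most positive and most negative differences, for those called in Mac1+ against Mac1lo, for those not lower in neutrophils, and for paralog pairs; other values were added after they were seen. The labels do not say that replicates are separate animals, so p-values cover only the spread among these samples, possibly technical. The fits were tested on simulated data. Alternatives changed the scaling, constant, dim-gene filter, probe set choice, variance prior, replicate block, samples and threshold. The number of arrays limits the precision.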

Additional observations from a re-analysis of the deposited data

How the results depend on the processing

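Across all settings tried for the neutrophil comparisons, between 30 and 35 members were called lower against Mac1+ and between 30 and 34 against Mac1lo, and Dck and Samhd1 were called higher in every setting except a tested change of at least 2-fold, where 1 (Samhd1) remained against Mac1+ and 0 against Mac1lo. Between Mac1+ and Mac1lo, where 5 were called lower and 0 higher, the lower count (with the share of all genes called lower, 5.51% as reported) was 11 after quantile normalization (5.89%), 3 and 12 with 1 and 64 added (4.02% and 7.46%), 8 without dim genes (10.1%), 8 with a trended and robust prior (5.63%), 18 with only the 2 groups fitted (12.3%) and 0 for at least 2-fold (0.995%); without each array in turn it lay between 1 and 17 (3.29% to 10.9%). The higher count there, where 6.31% of all genes were called as reported and between 1.08% and 13.3% under these settings, was 1 after quantile normalization, 2 with arrays centred on their medians, 3 with 64 added, 2 without dim genes, 2 with a gene's probe sets averaged, 1 without x and s probe sets, 2 with the trended prior and 3 with only the 2 groups, and between 0 and 3 without each array. With centring, the median over all genes went from 0.05 to -0.15 against Mac1+ and from 0.05 to -0.12 against Mac1lo, and the members' medians to -3.59 and -4.05. The probe set choice moved the members' medians further: they were -4.23 and -4.63 with the probe set of highest mean intensity, beside -3.39 and -3.89 as reported. Shmt1 changed sign against Mac1+ with the mean of its probe sets (-2.59), with the probe set of highest mean intensity, a choice made after seeing the data (-5.08), and without neutrophil array 1 (-0.55, with a range up to 1.36 over single arrays left out); against Mac1lo the values were -3.02, -5.41 and -0.73 (range up to 1.18). No pairing by replicate number was detected: deviations of same-numbered arrays correlated between -0.307 and 0.132, and 1 of 9 pairs exceeded 0.1. Correlations from 3 arrays per group cannot show that same-numbered samples came from separate mice or sorts. With the replicate block, 4 members were called lower between Mac1+ and Mac1lo, since Ctps was lost (adjusted p = 0.0617), 0 were called higher, and the block changed no other count of members. Of 1197 alternative values for the 19 members given in full, 1115 kept direction and call, 39 gained and 37 lost a call and 6 changed sign; the cause was not tested. Neutrophil levels near the array median limit how far down a fall can be measured.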

Other observations

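A wider list of 74 genes around these pathways (nucleoside transport and breakdown, folate and methionine metabolism, regulators) had 64 measured members and moved in both directions. By limma 15 were called higher and 27 lower in neutrophils than in Mac1+, 16 and 31 against Mac1lo, and 6 and 8 in Mac1+ than in Mac1lo, with medians of -0.20, -0.43 and -0.20. Against Mac1+, 23.4% of the list were called higher and 42.2% lower, beside 19.7% and 28.4% of all genes. Against Mac1lo, 48.4% were called lower beside 30.0% of all genes, and 16 of 64 higher beside 22.6%. Between Mac1+ and Mac1lo the shares were 9.38% higher and 12.5% lower, beside 6.31% and 5.51%. Genes of purine breakdown did not move one way: from Mac1+ to neutrophils Ampd3, Nt5e, Xdh and Nt5c2 (0.72) rose, whereas Pnp (-1.41) and Ada (-1.48) fell. Ampd2 (-0.28, adjusted p = 0.225) and Gda (0.35, adjusted p = 0.0632) were not called. Ampd3, an AMP deaminase, read 197, 203 and 222 in Mac1lo, 1562, 1436 and 1404 in Mac1+, and 7273, 6845 and 6393 in neutrophils. Its values rose in 2 separate steps, 6.64-fold from Mac1lo to Mac1+ (2.73 ± 0.13, adjusted p = 3.66e-06, limma) and on to 30.7-fold above Mac1lo in neutrophils. Nt5e, the ectoenzyme CD73 that makes adenosine from AMP, read 17.6, 3.62 and 11.2 in Mac1+ and 2600, 3920 and 3211 in neutrophils. Xdh, which makes uric acid, was 9.64-fold higher in neutrophils than in Mac1+ (3.27 ± 0.18), at 6975 to 7756 against 622 to 944.

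Adenosine deaminase (Ada) was highest in Mac1+, at 2198, 2340 and 2479 against 843, 715 and 610 in Mac1lo, a rise of 3.21-fold (adjusted p = 0.0063). Dctd, deoxycytidylate deaminase, fell at both steps, from 1229, 1235 and 1074 in Mac1lo through 292, 395 and 335 in Mac1+ to 33.7, 5.78 and 22.9 in neutrophils. Myc, a transcription factor known to act on nucleotide synthesis genes, read 3705, 3394 and 3209 in Mac1lo, 1521, 2148 and 2449 in Mac1+, and 95.8, 50.0 and 55.9 in neutrophils. No relation between Myc and the members was tested.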
